A study of Homo sapiens with 24 samples.

Results

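The genes described here are 7 human genes of cellular iron handling whose mRNAs or products belong to the iron-responsive element (IRE) system: the ferritin subunits FTH1 and FTL, the transferrin receptor TFRC, the iron transporters SLC40A1 and SLC11A2, and the iron regulatory proteins ACO1 (IRP1) and IREB2 (IRP2). They were chosen by name for their known control by iron, with earlier results of these data known. All 7 were among the 54583 genes of the count table. Of these, 6 were among the 12058 genes with a count above 0 in every library, which were the genes tested, and SLC40A1 was not.

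An IRE is a short RNA hairpin with an unpaired C in its stem and a loop of 6 bases. In cells short of iron, the iron regulatory proteins bind IREs. A protein bound near the cap in the 5′ UTR blocks translation initiation, as for the ferritins, which store iron, and proteins bound in the 3′ UTR protect an mRNA from degradation, as for TFRC, which takes up iron carried by transferrin. When iron is plentiful, ACO1 carries an iron-sulphur cluster and acts as a cytosolic aconitase, and IREB2 is degraded. Ferritin mRNAs are a textbook example of mRNAs held out of polysomes, the strings of ribosomes on a translated mRNA.

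PANC1 cells, an established line of human pancreatic ductal adenocarcinoma and therefore 1 model, were treated for 6 h with DMSO, with CID661578 at 40 µM or with cercosporamide at 5 µM. The labels name both compounds as inhibitors of MNK2, a kinase of the translation initiation factor eIF4E, and kinase activity was not measured in these libraries. For 4 replicates of each treatment, total cytosolic RNA and RNA associated with more than 3 ribosomes on a sucrose gradient were sequenced. The latter is called polysome-associated RNA here. This gave 24 libraries and 6 groups of 4. Total and polysome libraries of the same treatment and replicate number are here called a plate, 12 in all. The labels name no plate. The comparisons ask how the mRNAs of these genes were spread between polysomes and total RNA and whether either compound moved them. No group was treated with iron or with an iron chelator.

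The cercosporamide polysome library of replicate 4 held 1592459 counts and stood apart in depth, and the other 23 libraries held 9268041 to 12184749. Of the epithelial and duct markers, KRT8 lay between 2752 and 13585 CPM (counts scaled to libraries of equal size), KRT18 between 1837 and 5835 and KRT19 between 698 and 4745, whereas KRT7, SOX9 and EPCAM were low at 3.14 to 31.8, 9.41 to 52.3 and 2.96 to 11.2. Of 9 markers of other cell types, PTPRC, ALB, PRSS1 and INS had no counts, PECAM1, CPA1, GCG and HBB had at most 5 counts in a library, and HBA1 lay between 0.628 and 4.65 CPM. Transcripts encoded in mitochondria took 1.18% to 1.65% of counts in DMSO polysomes, 0.215% to 0.304% with CID661578 and 0.452% to 0.992% with cercosporamide. A change was called at an adjusted p below 0.15 and over 1.2-fold. The number of iron genes called for each compound in each fraction and for TE was the same when libraries were normalized without these transcripts.

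The IREs are shown because their place in the mRNA divides the genes. The UTRs of every annotated transcript were searched on the mRNA strand for C, any 5 bases and CAGTGN, followed by 5 bases that pair with the 5 bases after the first C (G-T pairs allowed, and in a second search 1 unpaired base on the 3′ side). Each element below is printed 5′ to 3′ as DNA from GRCh38, with the unpaired C and the loop in capitals. The ferritin elements lie in exons, in the 5′ UTR, at chr11:61967575-61967601 on the minus strand for FTH1 and chr19:48965336-48965362 on the plus strand for FTL, and begin 34 and 28 bases into the canonical UTR.
FTH1: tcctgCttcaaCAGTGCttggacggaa
FTL: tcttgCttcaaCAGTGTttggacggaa
These share 25 of 27 bases. The SLC40A1 element, also in the 5′ UTR, at chr2:189580662-189580688 on the minus strand, shares 13 of 27 bases with each of them. It lies in 1 of 5 transcripts with an annotated 5′ UTR, the FTH1 element in 7 of 8 and the FTL element in 1 of 1.
SLC40A1: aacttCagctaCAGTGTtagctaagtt

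TFRC held 4 matches, all in its 3′ UTR on the minus strand of chromosome 3, in 10 of 11 transcripts with an annotated 3′ UTR. In mRNA order they lie at chr3:196050980-196051006, chr3:196050576-196050602, chr3:196050511-196050537 and chr3:196050464-196050490.
TFRC, the first: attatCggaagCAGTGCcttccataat
TFRC, the second: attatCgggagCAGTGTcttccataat
TFRC, the third: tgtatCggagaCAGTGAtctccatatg
TFRC, the fourth: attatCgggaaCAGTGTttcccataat
SLC11A2, the divalent metal transporter DMT1, held 1 match with an unpaired base in its 3′ UTR at chr12:50988269-50988296 on the minus strand, in 4 of 9 transcripts with an annotated 3′ UTR, so that counts per gene mix forms with and without it. IREB2 also held 1 such match, at chr15:78500970-78500997 on the plus strand, in 1 of 2 such transcripts, and ACO1 held none.
SLC11A2: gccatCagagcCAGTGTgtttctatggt
IREB2: atttgCtttcaCAGTGAtgagtgagagg
Matches with 5 pairs were found in 0.203% of 19217 genes with an annotated 5′ UTR and in 0.739% of 19226 with a 3′ UTR, and with 1 unpaired base allowed in 0.661% and 2.21%. The letters C, any 5 bases and CAGTGN alone were found in 16.0% and 39.5%. A match is a match of letters, and its binding was not measured here.

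In total RNA of DMSO cells, the ferritins were by far the most abundant of the genes per length of transcript. As CPM per kb of the canonical transcript, FTL stood at 3743 ± 551 (SD, n = 4), FTH1 at 503 ± 165, TFRC at 54.9 ± 29.8, SLC11A2 at 8.10 ± 1.02, ACO1 at 3.74 ± 1.61 and IREB2 at 1.07 ± 0.434. No neighbours in this order overlapped between the libraries. In DMSO polysomes the levels per kb were 900 ± 202 for FTL, 84.7 ± 22.8 for TFRC, 72.2 ± 30.5 for FTH1, 7.30 ± 1.58 for SLC11A2, 4.40 ± 1.62 for ACO1 and 2.04 ± 0.721 for IREB2. There the libraries of TFRC and FTH1 overlapped, as did those of SLC11A2 and ACO1 and those of ACO1 and IREB2. With CID661578 the polysome levels of TFRC (126 to 190 CPM per kb) lay above those of FTH1 (25.2 to 49.1), and with cercosporamide likewise (91.0 to 169 against 25.2 to 86.8).

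The level of FTH1 is uncertain because near-identical copies may share its reads. The table listed 25 FTH1 copies (symbols FTH1P and a number), of which 16 had counts and 11 were tested, and together they held 2.48 to 4.30 counts for each count of FTH1. The highest was FTH1P10. For FTL, 19 copies were listed, 6 had counts and 2 were tested, and together they held 0.0468 to 0.0665 counts for each count of FTL, with FTLP3 the highest. Reads of a gene and of its copies cannot be told apart in these counts, so FTH1 was also tested with its copies summed. A read counted at several copies would enter that sum repeatedly, which could not be checked here. The summed fit is therefore no separate check of FTH1.

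**Figure D1:**
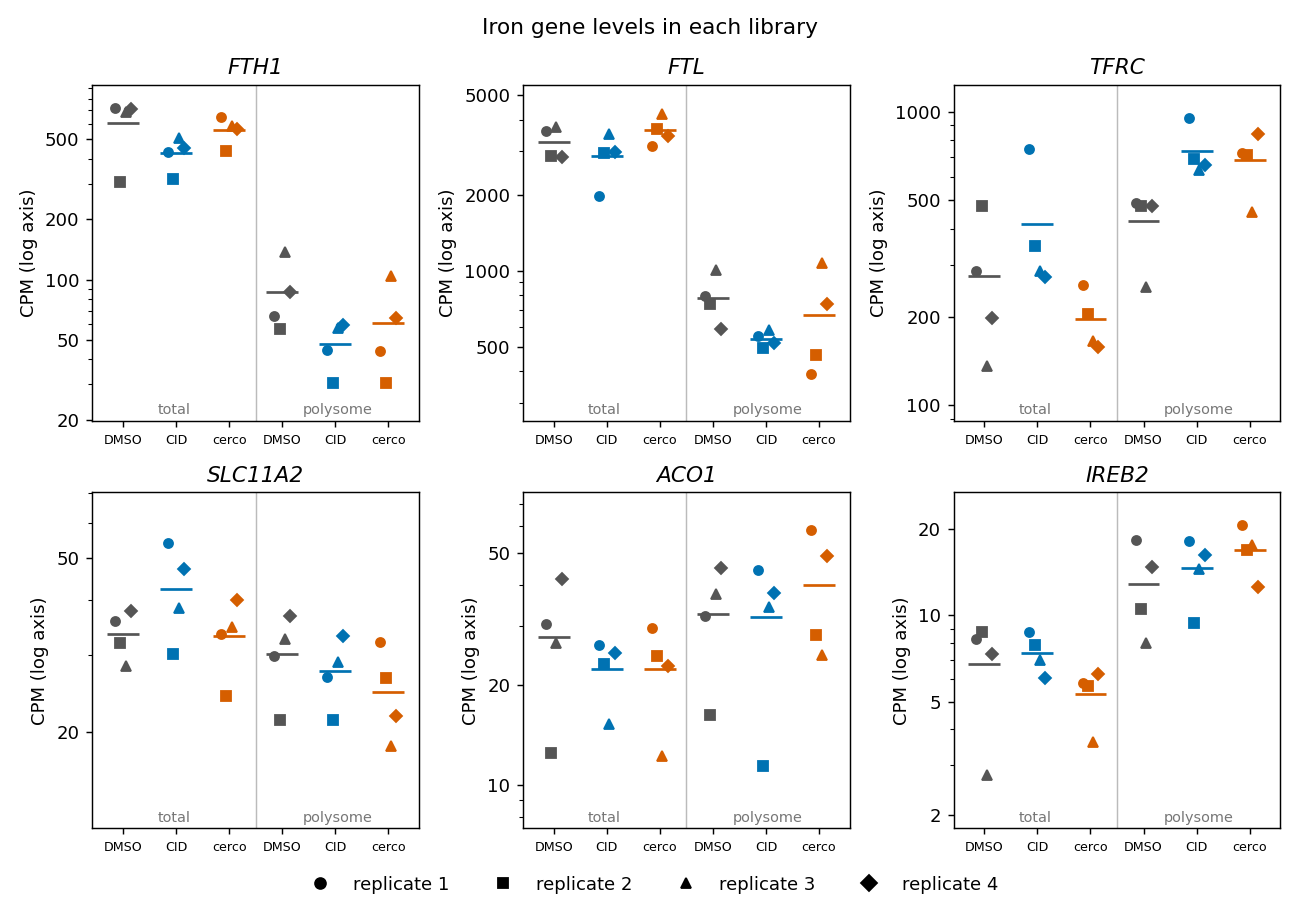
CPM of the 6 tested iron genes (log axis, a different range for each gene) in the 24 libraries, by fraction and treatment (CID, CID661578; cerco, cercosporamide); each marker is a library, its shape gives the replicate, and horizontal lines are means of 4. FTH1 and FTL sit far lower in polysomes than in total RNA, TFRC in polysomes lies at 253 to 488 CPM with DMSO and at 634 to 952 with CID661578, and replicate 3 has the lowest TFRC of its group in all 3 polysome groups.

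With DMSO, both ferritin mRNAs were depleted from polysomes relative to total RNA, while TFRC and IREB2 were enriched. FTH1 measured 720, 308, 688 and 706 CPM in total RNA of replicates 1 to 4 and 65.5, 56.7, 138 and 86.9 CPM in polysomes. FTL measured 3594, 2865, 3751 and 2832 CPM in total RNA and 797, 739, 1012 and 588 CPM in polysomes. The fractions did not overlap for either ferritin, and every plate was lower in polysomes. In bulk RNA, a low level in every cell and a low level in some cells cannot be told apart. The log2 difference between polysome-associated and total RNA was -2.81 ± 0.191 (SE) for FTH1 (edgeR adjusted p = 6.38e-14) and -2.07 ± 0.166 for FTL (edgeR adjusted p = 1.91e-12), or 0.143 and 0.238 times the total level.

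TFRC measured 288, 479, 136 and 198 CPM in total RNA of DMSO cells and 488, 479, 253 and 477 CPM in polysomes. Replicate 2 had equal levels in both fractions and the other 3 plates were higher in polysomes. The log2 difference was 0.73 ± 0.180 (edgeR adjusted p = 0.000985), and without the replicate block it was 0.62 and not called (edgeR adjusted p = 0.165). IREB2 measured 8.30, 8.75, 2.77 and 7.33 CPM in total RNA and 18.3, 10.5, 8.02 and 14.8 CPM in polysomes, so that every plate was higher in polysomes, with a log2 difference of 0.97 ± 0.254 (edgeR adjusted p = 0.002). SLC11A2 (-0.17 ± 0.196, edgeR adjusted p = 0.512) and ACO1 (0.26 ± 0.195, edgeR adjusted p = 0.279) did not pass the test. Thus 4 of 6 iron genes were called, 2 in each direction. In the same comparison 58.3% of all genes tested were called, 27.7% as higher and 30.6% as lower in polysomes, so a call alone sets none of the 4 apart.

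The size of the difference placed the ferritins near the bottom of all genes. FTH1 lay at percentile 0.249 of the 12058 differences and FTL at percentile 1.64, with TFRC at 83.1 and IREB2 at 89.4. Both ferritins have short coding sequences, 552 nt for FTH1 and 528 nt for FTL, and a short coding sequence holds few ribosomes. Whether coding length bears on the place of the ferritins was not tested. The 1358 genes with a coding length of 600 nt or less had a median log2 difference of -0.89 (quartiles -1.35 and -0.44), against -0.02 for all genes. Among these, 1 gene was lower than FTH1 and 66 were lower than FTL. The 11 tested FTH1 copies were all called lower in polysomes (log2 differences -3.05 to -2.87). All of them lay below FTH1, and the 2 tested FTL copies (-2.35 and -2.11) lay below FTL. The percentiles therefore count copies that may share reads with the ferritins. Because the values are relative to all genes, scaling each fraction on its own moved the median of all genes to 0.26, and FTH1 to -2.53 and FTL to -1.80, and brought ACO1 to a called 0.54 (edgeR adjusted p = 0.0206).

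**Figure D2:**
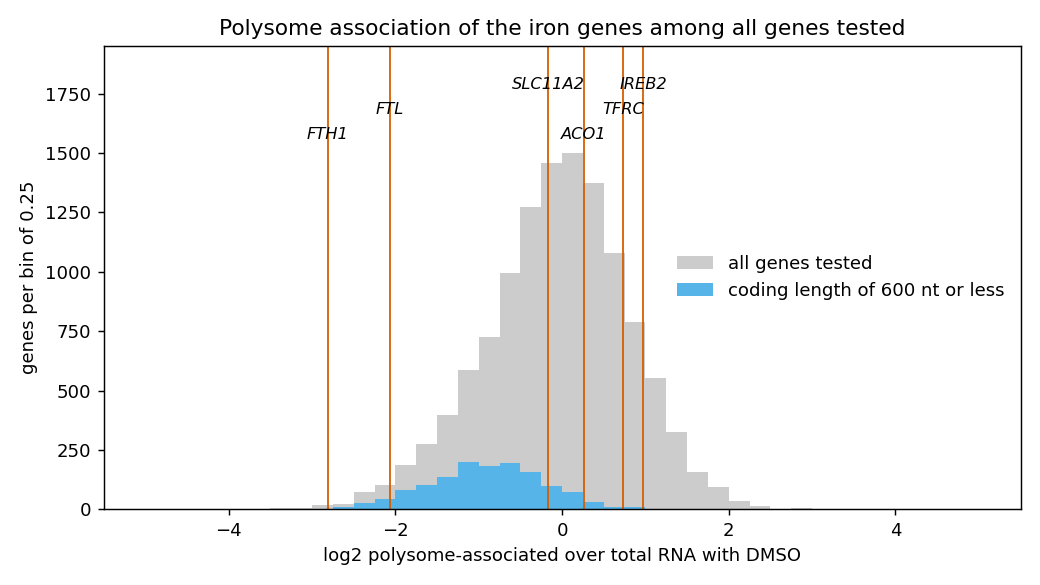
Number of genes (y axis, bins of 0.25) by log2 polysome-associated over total RNA with DMSO (x axis); grey, all 12058 genes tested; blue, the 1358 with a coding length of 600 nt or less; vertical lines, the iron genes. FTH1 (-2.81) and FTL (-2.07) lie in the lower tail, also among short coding sequences, and TFRC (0.73) and IREB2 (0.97) lie on the upper side.

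In polysomes, FTH1, the ferritin subunit with ferroxidase activity, was lower with both compounds. Its levels were 44.7, 30.4, 57.1 and 59.1 CPM with CID661578 and 44.0, 30.3, 104 and 64.2 CPM with cercosporamide, against the DMSO levels of 65.5, 56.7, 138 and 86.9. The groups overlapped in part, but within each replicate both compounds were below DMSO. FTH1 in polysome-associated RNA fell by 0.81 ± 0.184 on the log2 scale with CID661578 (0.570 times DMSO, edgeR adjusted p = 0.0165) and fell by 0.57 ± 0.185 with cercosporamide (0.672 times DMSO, edgeR adjusted p = 0.034). Both comparisons share the DMSO libraries. Of all genes tested, 10.1% were called with CID661578 and 32.2% with cercosporamide in polysome-associated RNA, and 2 of 6 iron genes, FTH1 (lower) and TFRC (higher), were called with each. By direction, 3.96% of all genes were called lower and 6.16% higher with CID661578, and 13.8% lower and 18.3% higher with cercosporamide. Fits without the replicate block gave -0.86 (edgeR adjusted p = 0.45) and -0.52 (edgeR adjusted p = 0.417) and no call. With copies summed the changes were -0.70 (edgeR adjusted p = 0.0601, called) and -0.38 (edgeR adjusted p = 0.192, not called), and the cercosporamide call was also lost without replicate 2 (-0.46, edgeR adjusted p = 0.191).

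FTL, the other ferritin subunit, showed polysome levels of 550, 494, 585 and 516 CPM with CID661578, all below the DMSO levels of 588 to 1012. The log2 difference of -0.53 ± 0.211 did not pass the threshold (edgeR adjusted p = 0.176), and passed when DMSO and CID661578 alone were fitted (-0.52, edgeR adjusted p = 0.0594). It also passed with no count filter (-0.54, edgeR adjusted p = 0.0895). With cercosporamide the levels of 390, 463, 1075 and 736 CPM lay on both sides of those of DMSO in the same replicates (-0.30 ± 0.213, edgeR adjusted p = 0.351). Without the shallow cercosporamide plate of replicate 4 the value of -0.48 was called (edgeR adjusted p = 0.144). With the trend of the fold changes with GC content removed, FTL stood at -0.36 with CID661578 (edgeR adjusted p = 0.573) and -0.07 with cercosporamide (edgeR adjusted p = 0.881). Of the FTH1 copies, 9 of 11 were called lower with CID661578 and 1 of 11 with cercosporamide (medians -0.70 and -0.34). These copies are no separate evidence, because their reads may be those of FTH1.

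In total RNA, neither ferritin passed the test. FTH1 stood at 435, 317, 508 and 454 CPM with CID661578 (log2 difference from DMSO -0.45 ± 0.185, edgeR adjusted p = 0.629) and at 649, 439, 584 and 562 CPM with cercosporamide (-0.06 ± 0.185, edgeR adjusted p = 0.943). FTL stood at 1988, 2942, 3497 and 2983 CPM (-0.21 ± 0.188, edgeR adjusted p = 0.907) and at 3153, 3679, 4223 and 3433 CPM (0.14 ± 0.188, edgeR adjusted p = 0.828). The DMSO library of replicate 2 was low for FTH1, at 308 CPM against 688 to 720 in the others. With edgeR, 0 of 6 iron genes were called in total RNA with either compound, where 0.448% of all genes were called with CID661578 and 0.381% with cercosporamide. At an unadjusted p below 0.05 the counts were 2 (FTH1 and TFRC) and 0, and DESeq2 called 0 with each.

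Translational efficiency (TE), the change in polysome-associated RNA relative to the change in total RNA, did not pass the test for either ferritin. The log2 TE change of FTH1 was -0.38 ± 0.262 with CID661578 (edgeR adjusted p = 0.673; lower in 2 of 4 replicates) and -0.53 ± 0.264 with cercosporamide (edgeR adjusted p = 0.18; lower in 4 of 4). DESeq2 called FTH1 for cercosporamide (-0.60, adjusted p = 0.118). It was also called with DESeq2 size factors (-0.60, edgeR adjusted p = 0.128) and with filterByExpr (-0.57, edgeR adjusted p = 0.149). Further calls came from partial variance (-0.61, partial variance adjusted p = 0.0695), without replicate 3 (-0.69, edgeR adjusted p = 0.142) and without replicate 4 (-0.71, edgeR adjusted p = 0.111). With its copies summed FTH1 stood at -0.29 (edgeR adjusted p = 0.526), and with the GC trend removed at -0.36 (edgeR adjusted p = 0.368), neither called. For FTL the values were -0.31 ± 0.281 (edgeR adjusted p = 0.743) and -0.48 ± 0.282 (edgeR adjusted p = 0.262), and with the GC trend removed -0.14 (edgeR adjusted p = 0.972) and -0.18 (edgeR adjusted p = 0.707). Without replicate 4 the cercosporamide value of FTL was called, at -0.69 (edgeR adjusted p = 0.126). The 95% intervals of FTH1, -0.92 to 0.16 and -1.07 to 0.02, leave room for a fall in TE as large as the change in polysomes, so the fall of FTH1 in polysomes was not resolved into a part from total RNA and a part from TE.

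**Figure D3:**
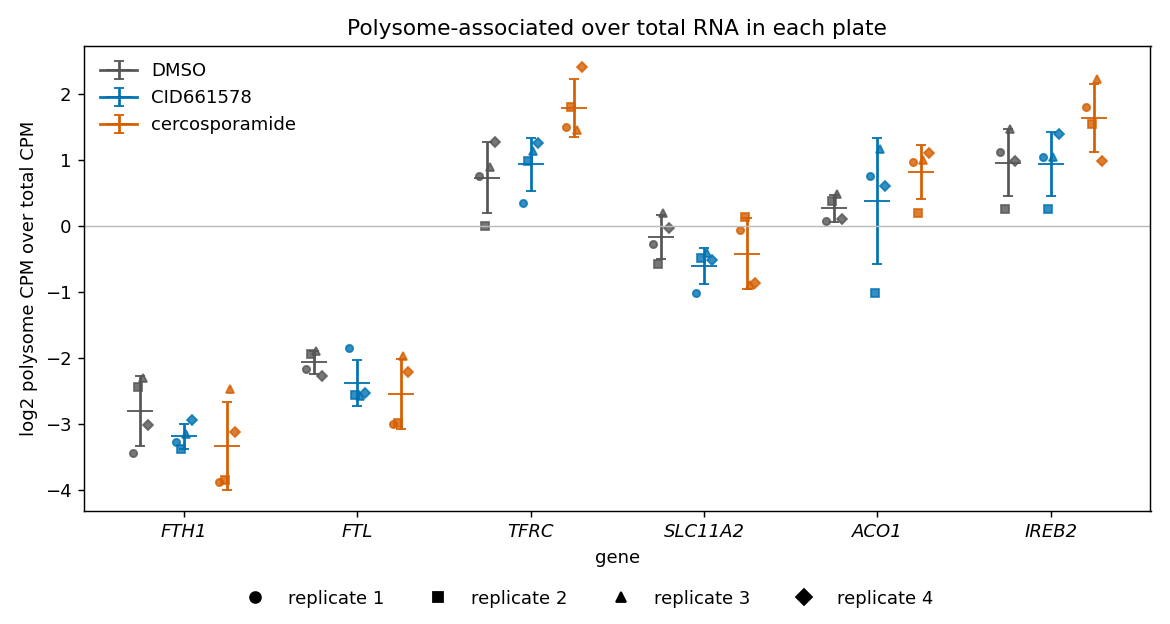
log2 polysome over total CPM (y axis) of the 6 tested iron genes in each of the 12 plates; colours give the treatment, marker shapes the replicate, and bars the mean ± SD of 4 plates. All TFRC plates with cercosporamide (1.45 to 2.41) lie above all DMSO plates (0 to 1.27), whereas the FTH1 plates of the 3 treatments overlap.

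TFRC was higher in polysomes with both compounds and gained TE with cercosporamide. Polysome levels were 952, 694, 634 and 659 CPM with CID661578 and 727, 714, 456 and 845 CPM with cercosporamide, against 488, 479, 253 and 477 CPM with DMSO. The CID661578 and DMSO libraries did not overlap, and with cercosporamide only replicate 3, the replicate that was also lowest with DMSO, lay within the DMSO range. TFRC in polysome-associated RNA gained 0.83 ± 0.182 in log2 units with CID661578 (1.78-fold, edgeR adjusted p = 0.0132) and by 0.70 ± 0.182 with cercosporamide (1.63-fold, edgeR adjusted p = 0.00981), and it was higher in 4 of 4 replicates with each. The CID661578 call was lost without replicate 3 (0.63, edgeR adjusted p = 0.204) and without the replicate block (0.79, edgeR adjusted p = 0.286). Removing each library's trend with gene GC content lowered the cercosporamide value to 0.40 (edgeR adjusted p = 0.145).

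In total RNA the TFRC values lay on opposite sides of DMSO without passing the test. With CID661578 they were 749, 349, 287 and 274 CPM (log2 difference 0.60 ± 0.251, edgeR adjusted p = 0.629), and with cercosporamide 257, 204, 166 and 158 CPM (-0.40 ± 0.249, edgeR adjusted p = 0.584). Replicate 1 with CID661578 stood far above the others of its group. With the GC trend removed, the CID661578 value of 0.63 was called (edgeR adjusted p = 0.115).

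The TE of TFRC rose by 1.06 ± 0.255 on the log2 scale with cercosporamide (2.09-fold, 95% interval 0.54 to 1.59, edgeR adjusted p = 0.00662), with 4 of 4 replicates higher by 0.56 to 1.80. TFRC was the single iron gene of 6 called for TE, where 28.4% of all genes tested were called and 15.8% were called higher. Its value lay at percentile 90.6 of all genes. Removing the GC trend lowered it to 0.62 (edgeR adjusted p = 0.0804), and a fit without plate and replicate terms gave 1.18 with no call (edgeR adjusted p = 0.178). With CID661578 the TE change of TFRC was 0.20 ± 0.254 (95% interval -0.32 to 0.73, edgeR adjusted p = 0.82), higher in 2 of 4 replicates. For CID661578, 0 of 6 iron genes were called for TE by edgeR, where 0.207% of all genes were called, with 0 at an unadjusted p below 0.05 and 0 by DESeq2.

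The number of TFRC counts for each FTH1 count within a library does not depend on how libraries are scaled. In polysomes it was 7.45, 8.45, 1.83 and 5.49 with DMSO, 21.3, 22.9, 11.1 and 11.1 with CID661578 and 16.5, 23.6, 4.37 and 13.2 with cercosporamide. All 4 CID661578 libraries lay above all DMSO libraries, and each cercosporamide library lay above the DMSO library of its replicate. In total RNA the ratio was 0.198 to 1.55 with DMSO, 0.564 to 1.72 with CID661578 and 0.282 to 0.465 with cercosporamide. There DMSO overlapped each compound, while all CID661578 libraries lay above all cercosporamide libraries. The ratio was formed from genes whose changes were already known and is given without a test.

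**Figure D4:**
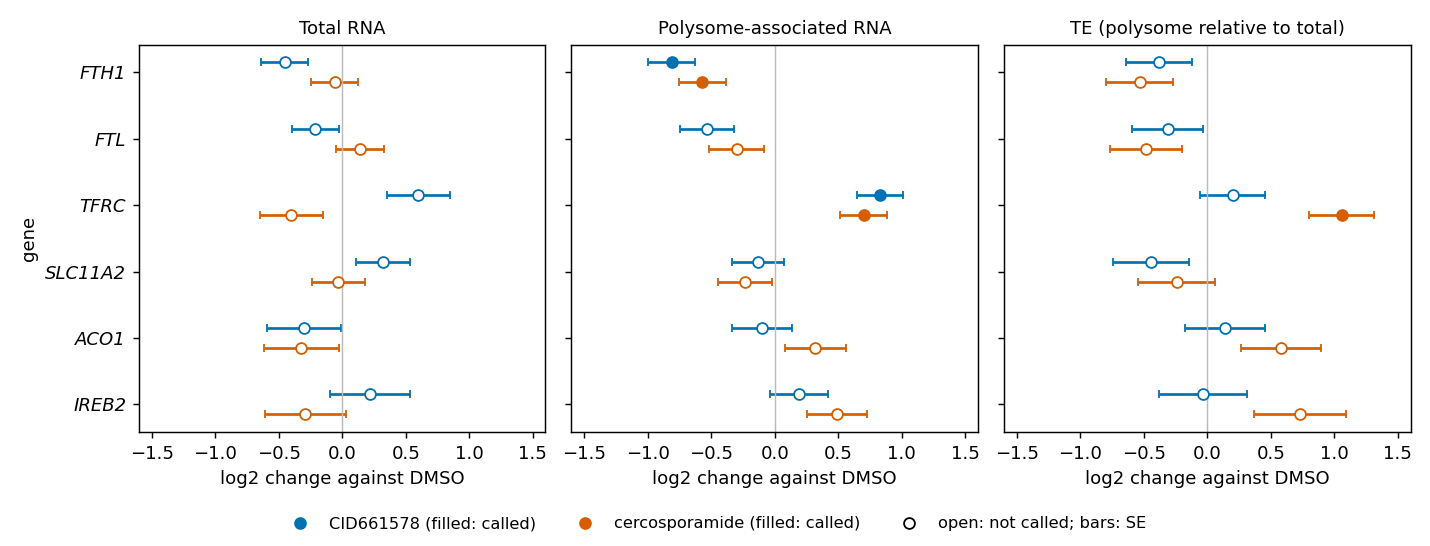
log2 change against DMSO with its SE (x axis) of the 6 tested iron genes in total RNA, polysome-associated RNA and TE; blue, CID661578; orange, cercosporamide; filled points passed the test. In polysome-associated RNA, FTH1 (-0.81 and -0.57) and TFRC (0.83 and 0.70) passed with both compounds, and in TE TFRC with cercosporamide (1.06) passed.

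Of the iron transporters, SLC40A1, which encodes ferroportin, the exporter of iron from cells, was barely detected. It had 1 count in the DMSO total library of replicate 1, 3 in that of replicate 3 and 6 in the cercosporamide total library of replicate 3, and none in the other 21 libraries. The 12 polysome libraries held 0 counts of 117722870, which allows up to 0.0255 CPM at 3 counts, a limit that covers counting error only. No fold is given, and any effect of the compounds was not detectable at this depth.

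SLC11A2, which carries iron out of endosomes after uptake through TFRC, passed no test. In total RNA it stood at 35.9, 32.0, 28.3 and 37.7 CPM with DMSO, 54.1, 30.1, 38.3 and 47.1 with CID661578 and 33.5, 24.2, 34.8 and 40.0 with cercosporamide. In polysomes it stood at 29.8, 21.4, 32.6 and 36.9 CPM, 26.7, 21.4, 28.9 and 33.1 CPM, and 32.1, 26.6, 18.6 and 21.8 CPM in the same order of treatments. The groups overlapped in each fraction, and the log2 TE change was -0.44 ± 0.297 with CID661578 (edgeR adjusted p = 0.663) and -0.24 ± 0.304 with cercosporamide (edgeR adjusted p = 0.649).

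The iron regulatory proteins did not pass the test for either compound. ACO1 in polysomes measured 32.2, 16.3, 37.5 and 44.8 CPM with DMSO, 44.4, 11.4, 34.3 and 37.9 with CID661578 and 58.3, 28.2, 24.6 and 49.0 with cercosporamide. In total RNA it ranged from 12.5 to 41.6 CPM, 15.3 to 26.3 CPM and 12.2 to 29.6 CPM in that order. The groups overlapped in each fraction, and the log2 TE change was 0.14 ± 0.312 with CID661578 (edgeR adjusted p = 0.908) and 0.58 ± 0.314 with cercosporamide (edgeR adjusted p = 0.223). Without replicate 2 the latter was called, at 0.80 (edgeR adjusted p = 0.13). The polysome difference with cercosporamide, 0.32 (edgeR adjusted p = 0.367), was called without replicate 3, at 0.56 (edgeR adjusted p = 0.143).

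IREB2 had the lowest levels of the tested iron genes. In polysomes it measured 18.2, 9.44, 14.5 and 16.3 CPM with CID661578 and 20.7, 16.9, 17.6 and 12.6 with cercosporamide, beside 8.02 to 18.3 CPM with DMSO, so the groups overlapped. The cercosporamide values came near the threshold, with a log2 difference of 0.49 ± 0.234 in polysome-associated RNA (edgeR adjusted p = 0.154) and a TE change of 0.73 ± 0.363 (edgeR adjusted p = 0.176). Without the shallow cercosporamide plate of replicate 4 both were called, at 0.60 (edgeR adjusted p = 0.0839) and 1.01 (edgeR adjusted p = 0.0776), and without replicate 4 of every treatment the polysome difference was called, at 0.57 (edgeR adjusted p = 0.124). With the GC trend removed they were 0.02 (edgeR adjusted p = 0.968) and 0.12 (edgeR adjusted p = 0.873). With CID661578 the TE change was -0.03 ± 0.347 (edgeR adjusted p = 0.983).

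The compounds were compared directly for TE in the 6 tested genes. They were given at different doses, CID661578 at 40 µM and cercosporamide at 5 µM, so the difference is one between these treatments and not between compounds at matched dose. TFRC was the single gene called, with a TE change lower by 0.86 on the log2 scale with CID661578 than with cercosporamide (-0.86 ± 0.255, 95% interval -1.38 to -0.33, edgeR adjusted p = 0.0458, lower in 4 of 4 replicates). Of all genes, 15.5% were called in this comparison, 7.57% as lower. The call was lost without replicate 1 (-0.76, edgeR adjusted p = 0.188) or replicate 2 (-0.87, edgeR adjusted p = 0.168). The 95% interval ran from -0.40 to 0.70 for FTH1, -0.42 to 0.75 for FTL, -0.83 to 0.42 for SLC11A2, -1.08 to 0.21 for ACO1 and -1.51 to -0.02 for IREB2, none of which passed the adjusted threshold, and none of which shows that the treatments acted alike. IREB2 (-0.77, edgeR adjusted p = 0.214) was called without replicate 4 (-1.09, edgeR adjusted p = 0.113) and without the cercosporamide plate of replicate 4 alone (-1.05, edgeR adjusted p = 0.104).

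Around these genes, 42 further genes of iron metabolism were listed in 5 groups by role, and 35 of them were tested. For TE with cercosporamide 7 of 35 were called, 4 higher and 3 lower, beside 28.4% of all genes, and the median of the 35 was -0.04. Among those named, APP, the amyloid precursor, rose by 1.11 ± 0.228 on the log2 scale (edgeR adjusted p = 0.00201), and its total RNA stood at 53.5 ± 2.69 CPM against 88.2 ± 12.0 with DMSO (SD, n = 4). CUL1, a scaffold of the ubiquitin ligase that targets IREB2, rose by 0.91 ± 0.284 (edgeR adjusted p = 0.0305), and NCOA4, the receptor that delivers ferritin for degradation, rose by 0.83 ± 0.259 (edgeR adjusted p = 0.0289). CIAO2B, a cytosolic iron-sulphur assembly factor, fell by 0.98 ± 0.238 (edgeR adjusted p = 0.00718), HERC2, a ligase that targets NCOA4, fell by 0.70 ± 0.275 (edgeR adjusted p = 0.0831), and ISCU, the mitochondrial scaffold of iron-sulphur clusters, fell by 0.69 ± 0.298 (edgeR adjusted p = 0.119). The calls fell on both sides in 3 of the groups.

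By group, for TE with cercosporamide, other mRNAs with a reported IRE gave 1 higher and 0 lower of 5 tested, regulation of the iron regulatory proteins 1 and 1 of 8, ferritin loading and turnover 1 and 1 of 4, iron uptake and export 0 and 0 of 8, and iron-sulphur cluster and heme genes 1 and 1 of 10. In the group for iron uptake and export, 0 genes had an unadjusted p below 0.05 and DESeq2 called 1 lower. For TE with CID661578, edgeR called 0 of 35, beside 0.207% of all genes, with 2 at an unadjusted p below 0.05 and 0 by DESeq2. In polysome-associated RNA with CID661578, 1 of 35 rose and 2 fell, beside 6.16% and 3.96% of all genes, and these were chosen for mention after their values were seen. HMOX1, which breaks down heme, rose by 0.73 ± 0.266 (edgeR adjusted p = 0.131), CIAO3 fell by 0.61 ± 0.222 (edgeR adjusted p = 0.132) and PCBP1, an iron chaperone for ferritin, fell by 0.46 ± 0.163 (edgeR adjusted p = 0.118). With cercosporamide 4 of 35 rose and 5 fell in polysome-associated RNA, beside 18.3% and 13.8% of all genes. In total RNA edgeR called 0 of 35 with either compound, beside 0.448% (CID661578) and 0.381% (cercosporamide) of all genes. At an unadjusted p below 0.05 there were 2 (CID661578) and 3 (cercosporamide), and DESeq2 called 1 with each.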

How the data were processed

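Raw counts per gene symbol were deposited by the authors for 24 libraries. Per their methods, adapter and ribosomal reads were removed with BBDuk and reads were aligned to hg38 with HISAT2. They were counted on RefSeq genes with the featureCounts of RSubread at default settings, after Smart-seq2 amplification without molecular identifiers. The strand of reads and the place of multiply aligned reads were therefore not resolved, which matters for FTH1 and FTL.

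Counts were analysed in R 4.3.3 with edgeR 4.0.16 (TMM; quasi-likelihood F test; Benjamini-Hochberg adjustment over 12058 genes with a count above 0 in all libraries). A change was called at an adjusted p below 0.15 and over 1.2-fold. The study used these limits within anota2seq, with the 1.2-fold limit on only some of its differences and with limits on slopes. Here edgeR took the place of anota2seq and both limits were applied to every comparison, so the calls are not those of the study. TE was the polysome by compound term in a fit with 12 plates and replicate within polysomes; each fraction was fitted with replicate and treatment, and DMSO polysomes against total with plate. CPM were TMM-scaled, with a prior count of 2 for log2 values. The replicate block follows the methods of the study, which describe 4 biological replicates; same-numbered libraries deviated together (r over 0.1) in 13 of 16 pairs, r = -0.0186 to 0.584. No libraries agreed within sampling noise (lowest chi-square per degree of freedom 14.9). In simulated data with these library depths, the TE test for CID661578 recovered 46.8% of 94 genes changed by 1 on the log2 scale. Of 96 changed by 1.5 it recovered 81.2%, and it called 11 of 11329 unchanged genes. More genes were changed there than the 25 of 12058 called in the real data, where recovery may be lower.

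Transcripts, UTRs and sites are from GENCODE on GRCh38; a total of 39020 of 54583 symbols matched directly and 290 through a synonym. Alternatives used DESeq2 1.42.0, limma 3.58.1, other scalings and filters, a GC trend (values for 96.6% of genes) and left-out libraries. Genes and lists were chosen with earlier results of these data known. Genes named: the 7 chosen, up to 4 listed genes called in each direction for each TE comparison, and for FTH1, FTL and TFRC the 3 genes of highest correlation. The ferritin copies were left out of these correlations. Some values of the listed genes are not reported here.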

Additional observations from a re-analysis of the deposited data

Results flagged for a closer look

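In 36 sets of 4 libraries (6 genes, 6 groups), 3 had a library that stood apart by Dixon's test, and chance alone flags about 1 in 20 sets. FTH1 in DMSO total RNA was 308 CPM in replicate 2 against 688 to 720 in the others. TFRC in DMSO polysomes was 253 CPM in replicate 3 against 477 to 488. TFRC in CID661578 total RNA was 749 CPM in replicate 1 against 274 to 349. The TE change of TFRC differed between CID661578 and cercosporamide by -0.86 on the log2 scale in a direct test (edgeR adjusted p = 0.0458), at unmatched doses.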

How the results depend on the processing

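Of 810 alternative values for single iron genes, 751 kept their direction and side of the threshold, 24 gained a call, 15 lost one and 20 turned direction. None of those that turned was called; the cause of these shifts was not tested.

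The number of iron genes called for TE with cercosporamide (1) was 0 without replicate block and plate terms, and 2 with DESeq2, with its size factors in edgeR, with filterByExpr, with an analysis of partial variance and without cercosporamide replicate 4; leaving out each replicate gave 1 to 3. For TE of CID661578 against cercosporamide (1) it was 0 without the block and plate terms, 2 without cercosporamide replicate 4, and 0 to 2 leaving out each replicate. In total RNA with CID661578 (0) it was 1 with the GC trend removed. In polysome-associated RNA with CID661578, FTL joined FTH1 and TFRC among the calls with no count filter (-0.54, edgeR adjusted p = 0.0895). FTL was also called there when DMSO and CID661578 alone were fitted. The number of iron genes called there (2) was 0 without the replicate block, with or without plate terms, and 1 to 2 leaving out each replicate (1 without replicate 3). With cercosporamide (2) it was 1 without the replicate block, with or without plate terms, 1 with ferritin copies summed, 4 without cercosporamide replicate 4, and 1 to 4 leaving out each replicate. Without the block, over all genes, the calls in polysome-associated RNA went from 1221 to 69 (CID661578) and from 3881 to 1921 (cercosporamide), and the TFRC difference between DMSO fractions lost its call (0.62, edgeR adjusted p = 0.165).

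Changes of direction, all in values not called, were as follows. For TE with CID661578, TFRC was -0.04 with the GC trend removed and -0.06 to 0.41 leaving out each replicate, SLC11A2 was 0.19 by partial variance, ACO1 was -0.03 by partial variance and -0.07 to 0.62 leaving out each replicate, and IREB2 was 0.05 without the block and plate terms, 0.12 by partial variance and -0.20 to 0.07 leaving out each replicate. For TE with cercosporamide, SLC11A2 was -0.56 to 0.04 leaving out each replicate. Between the compounds, FTH1 was -0.02 with the GC trend removed, and leaving out each replicate FTL was -0.16 to 0.42 and SLC11A2 -0.46 to 0.06. In total RNA, IREB2 with CID661578 was -0.11 to 0.39 and SLC11A2 with cercosporamide -0.15 to 0.10 leaving out each replicate, the latter 0.09 with the GC trend removed. In polysome-associated RNA with CID661578, ACO1 was -0.27 to 0.01 and IREB2 -0.03 to 0.29 leaving out each replicate, the latter -0.15 with the GC trend removed. SLC11A2 in DMSO fractions was 0.11 with TMM within each fraction.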

Other observations

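Genes with a 5-pair element that are not among the 7 were described as a group, chosen by sequence after the results were known. Of 36 with the element in the 5′ UTR, 18 were tested. In TE with cercosporamide 4 rose and 1 fell (median 0.18, all genes 0), beside 15.8% and 12.6% of all genes. For CID661578, 0 were called by edgeR or DESeq2, beside 0.207% of all genes by edgeR, and 1 had an unadjusted p below 0.05. In DMSO cells 5 were higher and 1 lower in polysomes than in total RNA (median 0.26), beside 27.7% and 30.6% of all genes. Of 141 with the element in the 3′ UTR, 100 were tested, and 16 rose and 8 fell in TE with cercosporamide (median 0.09), beside 15.8% and 12.6% of all genes. The search found the reported element of ALAS2 in the 5′ UTR with 5 pairs, that of EPAS1 with 1 unpaired base and that of CDC14A in the 3′ UTR, and matched none in CDC42BPA or APP.

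With the FTH1 and FTL copies left out, correlations were ranked across the 24 libraries. The genes whose log2 CPM then followed FTH1 most closely were FTL (Pearson r = 0.970), IDS (0.963) and BOLA3 (0.954). For FTL they were FTH1 (0.970), C22orf39 (0.962) and POPDC3 (0.959), and for TFRC they were STAG1 (0.923), TMTC3 (0.911) and CPD (0.904). These libraries share plates and replicates, and the values follow mostly the gap between fractions, so they are a description without a test.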
